A study of Mus musculus with 8 samples.

Results

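The type I interferon response genes described here are a list of 45 genes that cells switch on after they have sensed interferon. They were chosen by name from the known biology of the response, with earlier results of these data known. Of the 45 listed genes, 43 are in the gene lists of all 8 libraries, among 30406 genes that these lists share. Mx2 is in neither gene list and Mx1, a dynamin-like antiviral GTPase, is in the shorter list alone. The 43 members held 206190 of 65866224 UMIs of annotated cells, which is 0.313% (a UMI is a molecular tag that marks 1 captured transcript). The values below are UMIs summed per library and cluster and scaled to CPM (counts per 1e+06 UMIs), and a score that is the mean over the 43 members of log2(CPM + 10).

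Type I interferons are cytokines released by cells that sense viral or self nucleic acids. They bind a shared receptor, IFNAR, whose kinases JAK1 and TYK2 activate transcription factors such as STAT2, which joins IRF9 in the complex ISGF3. ISGF3 binds a short DNA element, the interferon-stimulated response element (ISRE), in front of the response genes. Microglia, border macrophages and T cells of the brain and meninges can all respond, and interferon-responding myeloid cells have been described in the aged and the injured brain.

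The study sorted tissue-resident leukocytes from mice after a transient occlusion of the middle cerebral artery, a stroke model, and from control mice, by droplet-based single-cell RNA sequencing. All mice were adult male C57BL/6, and the sorted cells carried CD45 but were not stained by an antibody to CD45 that was injected into the blood before perfusion. The groups were control brain parenchyma, control pia mater and control dura mater, brain, pia and dura at 24 h after occlusion, and brain at 72 h, with 1 library each except for brain at 24 h, which had 2 libraries called replicates 1 and 2. The labels call the controls only control, while the study's methods name naive mice as controls of this assay and its figure legends name sham operation. The study pooled repeated experiments for each compartment, but the labels do not tie mice to libraries. Libraries are therefore the replicates, and p-values measure only the spread between them that a fit leaves, which may be technical. In fits across tissues, this spread also includes differences between tissues in their change. In total 32457 of 36854 barcodes carried one of 21 cluster names given by the authors, and these names were used as they are.

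To show the element that defines the response, the promoters of the members were searched on either strand for the core of the ISRE, a pair of GAAA blocks with 2 bases of any kind between them. RefSeq promoters (GRCm38.p6, 250 bases before to 50 after the start) were found for 35 members, and 21 of these held the motif (60%), against 1079 of 27025 genes of the table (3.99%). A longer form, with C and any base after the second block, was in 15 of the 35 members (42.9%) and in 255 of all genes (0.944%). The windows below are of genes that carry the results and have a match before the start, so each window holds the motif by choice. They are members among the steepest in cluster Macro_1 (Ifit1, Ifit3, Ifit3b, Isg15, Rsad2) and members with the lowest p at 24 h in macrophages (Irgm1, Gbp2, Gbp3). Oasl1, Irf7 and Usp18 were steeper in Macro_1 than Isg15 but have no window, as Oasl1 and Irf7 have no match and no promoter was found for Usp18. Each window is written 5′ to 3′ on the strand of its gene, capitals mark the matches, and a pair of TTTC blocks is the same motif read on the other strand.
Ifit1, chr19:34640784-34640833, plus strand: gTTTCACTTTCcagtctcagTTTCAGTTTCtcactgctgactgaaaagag
Ifit3, chr19:34583387-34583436, plus strand: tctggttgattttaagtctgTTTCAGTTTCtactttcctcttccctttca
Ifit3b, chr19:34607783-34607832, plus strand: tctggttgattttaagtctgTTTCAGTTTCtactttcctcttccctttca
Isg15, chr4:156200855-156200904, minus strand: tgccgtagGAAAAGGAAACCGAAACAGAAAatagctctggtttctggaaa
Rsad2, chr12:26456543-26456592, minus strand: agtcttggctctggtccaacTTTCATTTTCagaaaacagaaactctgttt
Irgm1, chr11:48871421-48871464, minus strand: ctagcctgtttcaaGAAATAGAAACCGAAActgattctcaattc
Gbp2, chr3:142620584-142620633, plus strand: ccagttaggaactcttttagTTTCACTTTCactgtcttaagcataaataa
Gbp3, chr3:142559985-142560034, plus strand: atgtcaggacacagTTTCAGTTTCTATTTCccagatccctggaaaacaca
Matches overlapped in Isg15, Irgm1 and Gbp3. The windows of Ifit3 and Ifit3b are identical letter for letter, and their promoters share an unbroken run of 169 bases. These genes are near-identical copies, so reads may be split between them and their separate levels are uncertain. No match was found in these promoters for 14 members, among them Irf7, Irf9, Ifit2, Oasl1 and Oasl2, which says only that these letters are not in this window.

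Many members sit side by side in the genome (GENCODE M21 on GRCm38). The 4 Ifit genes, whose products bind foreign RNA, lie within 99.3 kb on chromosome 19. The 3 Oas genes, which make the messenger that activates RNase L, span 177.2 kb on chromosome 5, and Oasl1 and Oasl2 another 41.0 kb of it. The 4 genes of the Ifi200 family of DNA sensors (Ifi204, Ifi209, Ifi211 and Ifi213) span 346.8 kb on chromosome 1.

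Between 6591898 and 20754181 UMIs were counted per library, and the median per annotated cell ranged from 1083 to 2505. Some libraries stand apart in ways that touch the members. Brain at 72 h and dura at 24 h are listed with version 3 of the kit and the others with version 2. By this listing, time and kit cannot be told apart in the comparisons of these 2 libraries with others. Shared cell barcodes grouped otherwise. Dura at 24 h shared 27 with control brain and 17 with control dura, but 1 with brain at 72 h. Replicate 2 of brain at 24 h shared 8 with brain at 72 h and 0 with control brain or dura at 24 h. Whether the listed versions are right was not tested. A shorter gene list (31053 genes, against 32285) was used for replicate 2 of brain at 24 h and for brain at 72 h, and between any 2 libraries at most 32 cell barcodes were shared (0.816% of the smaller library). The clusters CAM_1 and CAM_2, named for border macrophages, carried microglial RNA in some brain libraries. Their P2ry12, a receptor of microglia, reached 5374.3 CPM in control brain and 568 CPM in brain at 24 h replicate 1, against 37.4 to 146 CPM in the other libraries, while Tc of control brain held 496 CPM.

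The highest members over all sums were Ifitm3, which blocks virus entry at membranes, Ifi27l2a, a small interferon-inducible protein, Bst2, which tethers budding virus, Isg15, a ubiquitin-like modifier, Lgals3bp, a secreted glycoprotein, and Ifi35, a leucine zipper protein. Ifitm3 averaged 3088.6 ± 979 CPM (SD, n = 7 libraries) in Granulo_1, 2232.7 ± 1580.7 CPM (n = 6) in mDC1 and 1445.7 ± 450 CPM (n = 8) in Macro_2, but 46.9 ± 22.2 CPM (n = 6) in Bc. Ifi27l2a averaged 740 ± 1088.2 CPM (SD, n = 4 libraries) in SAMC and 666 ± 579 CPM (n = 8) in CAM_2. Bst2 averaged 467 ± 294 CPM (SD, n = 8 libraries) in CAM_2 and 18.1 ± 12.2 CPM (n = 6) in Granulo_2. Ifitm3 thus was higher in Granulo_1 and Macro_2 than in B cells by more than the SD between libraries, its SD in mDC1 was wide, and the SD of Ifi27l2a in SAMC was larger than its mean. Isg15 was highest outside Macro_1 in lymphoid cells, where gdTc had 187 ± 131 CPM (SD, n = 4) and Tc 138 ± 85.8 CPM (n = 8). Lgals3bp averaged 177 ± 92.8 CPM (SD, n = 4 libraries) in SAMC and 10.8 ± 10.7 CPM (n = 6) in Bc. Ifi35 had the narrowest range of the 6 outside Macro_1, from 32 ± 16.6 CPM (SD, n = 6 libraries) in Granulo_2 to 144 ± 51.1 CPM (n = 6) in mDC1.

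**Figure D1:**
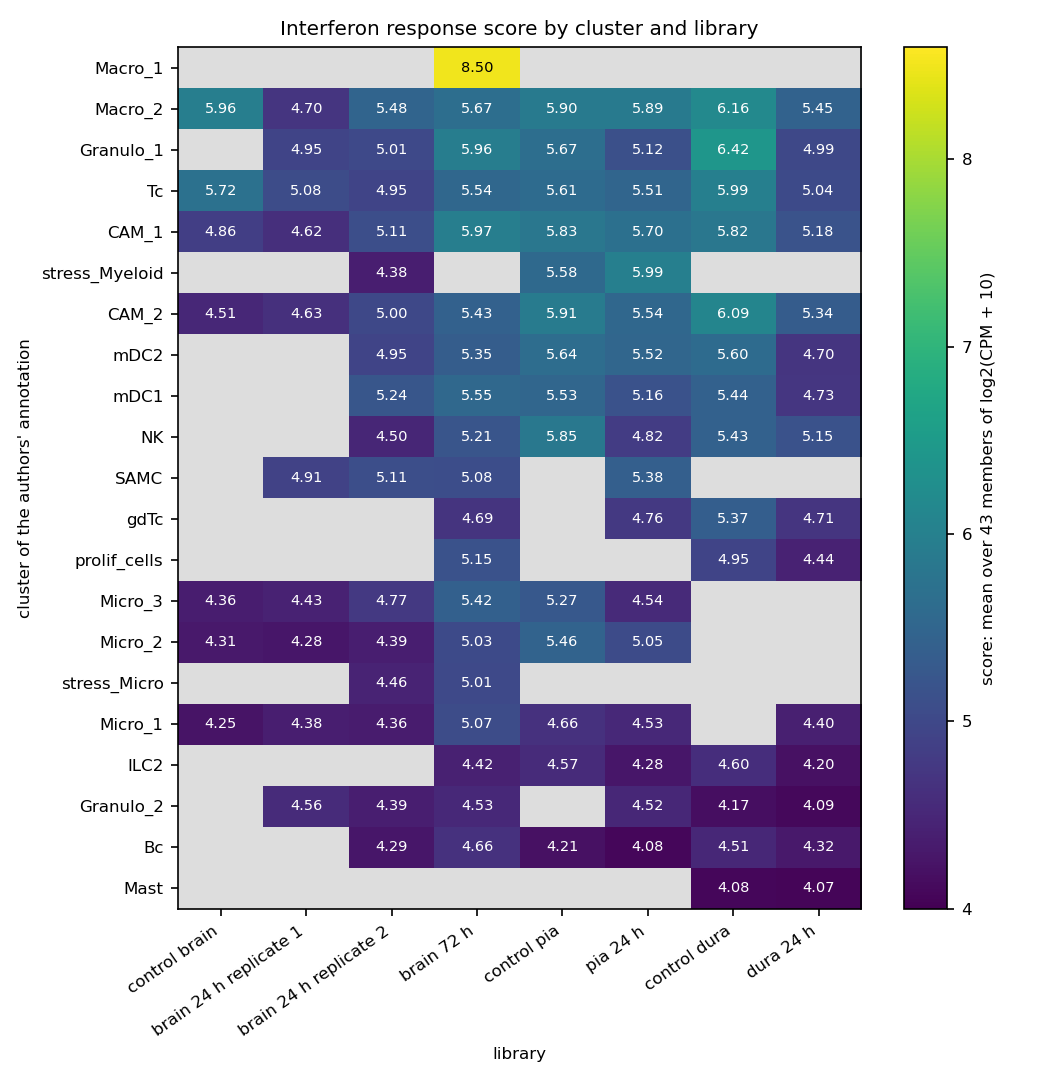
Interferon response score (mean over 43 members of log2(CPM + 10)) for each cluster (rows) and library (columns), colour and printed value; grey marks sums of fewer than 30 cells. Macro_1 at brain 72 h has a score of 8.50, and no other cell of the map is above 6.42.

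Across clusters, Macro_1 stood at the top and mast cells, B cells and the neutrophil cluster Granulo_2 at the bottom. With sums of at least 30 cells, the score of Macro_1 was 8.50 (brain 72 h alone). The next cluster was Macro_2 at 5.65 ± 0.46 (SD, n = 8 libraries), then Granulo_1 at 5.45 ± 0.58 (n = 7), Tc at 5.43 ± 0.37 (n = 8) and CAM_1 at 5.39 ± 0.51 (n = 8). These 4 differ by less than the spread between libraries. Micro_1 averaged 4.52 ± 0.28 (SD, n = 7 libraries), Granulo_2 4.38 ± 0.20 (n = 6), Bc 4.34 ± 0.21 (n = 6) and Mast 4.08 ± 0.01 (n = 2).

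Outside Macro_1, clusters differed in which members they carried. Tc held the highest mean CPM of 10 of the 43 members, stress_Myeloid of 7, stress_Micro of 5 and Macro_2, Granulo_1 and mDC1 of 4 each. The mean of stress_Micro covers only 2 usable libraries, both with the shorter gene list, so cluster and library cannot be told apart there. In microglia, its members Stat2, Eif2ak2, Parp14 and Slfn8 were at least 2-fold higher in replicate 2 at 24 h than in replicate 1. Its member Lgals3bp was not. Compared with the median cluster, Tc was highest for Ifit1 (91.2 against 9.27 CPM), Ifi47, an immunity-related GTPase (188 against 31.4 CPM), and Ifit3 (82.1 against 17.1 CPM). Granulo_1 led in Ifitm3, Ifi204 (142 against 25.7 CPM) and Ifi211 (115 against 21.6 CPM). In stress_Myeloid, a cluster of 3 usable libraries, the leading members were Oasl1, an OAS-like protein (68.6 against 6.96 CPM), Ifi204 (149 CPM) and Usp18, which removes ISG15 and restrains the receptor (97.4 against 18.1 CPM). Clusters were built from the same counts, so these differences are descriptions and no test was made.

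Macro_1 was small in every library. It held 195 cells, 73 of them in brain at 72 h (1.21% of that library's cells, exact 95% interval 0.947 to 1.52%) and 9 to 28 in each of the other libraries (0.26 to 0.783%). The 43 members together reached 21650.6 CPM in Macro_1 of control brain, 22821.5 and 17970.0 CPM in brain at 24 h replicates 1 and 2, and 25671.3 CPM in brain at 72 h. In control pia they reached 28348.0 CPM, in pia at 24 h 33325.6 CPM, in control dura 40019.7 CPM and in dura at 24 h 32971.8 CPM. The level was therefore high in control tissue as well as after stroke, and the meningeal libraries were above the brain libraries. Against all other cells of the same library, the ratio was lowest in brain at 72 h (5.73) and highest in control brain (26.4). The cluster held 13.9 to 28.7% of the UMIs that a library had in 12 core members (Ifit1, Ifit2, Ifit3, Ifit3b, Isg15, Rsad2, Oasl1, Oasl2, Cmpk2, Usp18, Irf7 and Rtp4).

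**Figure D2:**
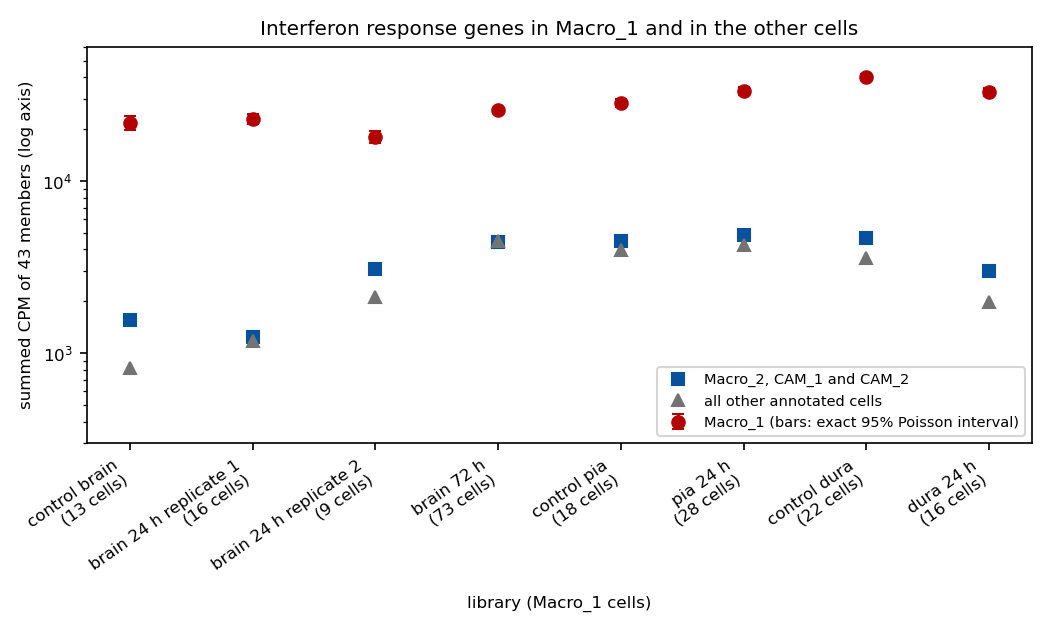
Summed CPM of the 43 members (log axis) in Macro_1, in the other macrophage clusters and in all other annotated cells of each library; bars are exact 95% Poisson intervals for Macro_1, which cover counting error only. Macro_1 sits between 17970.0 and 40019.7 CPM, and the other macrophages between 1244.5 and 4844.5 CPM.

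In brain at 72 h, where Macro_1 had enough cells for single genes, it was the highest of 19 clusters for each of the 43 members. For the 38 members that averaged at least 10 CPM this was again all 38, while 7.54% of all genes at that level were highest in Macro_1. In 32 of these 38 members Macro_1 was at least 2-fold above the next cluster on the CPM + 10 scale, against 0.988% of all genes. Macro_1 was built from the same counts, so these shares are descriptions and no test was made. Rsad2, the enzyme viperin that makes a chain-ending nucleotide, reached 1228.3 CPM (exact 95% Poisson interval 1067.8 to 1406.1), against 54.3 CPM in the next cluster, CAM_1. Ifit3 reached 1175.7 CPM (1018.7 to 1349.9) against 52.2 CPM in CAM_1. Ifit1 reached 562 CPM (455 to 686) against 25.2 CPM in Macro_2. On the CPM + 10 scale these are ratios of 19.2, 19.0 and 16.2, the steepest of all members. Irf7, the factor that amplifies the response, stood at 994 CPM against 111 CPM in Granulo_1, and Isg15 at 1321.9 CPM against 187 CPM in Micro_3. Slfn5, a Schlafen family protein, stood at 1140.6 CPM against 306 CPM in Granulo_1.

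The members with the least difference were Ifitm3 (4609.0 CPM against 3721.8 CPM in Granulo_1), the immunity-related GTPases Igtp and Irgm1, and Irf9, the DNA-binding part of ISGF3. Irgm1 was 87.7 CPM (49.1 to 145) in Macro_1 and 54.6 CPM in gdTc, a difference within the counting interval. Outside the list, genes with large ratios of Macro_1 to the next cluster included Phf11d (5.27), Slfn4 (5.03), Ms4a4c (3.91) and Parp12 (3.89).

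**Figure D3:**
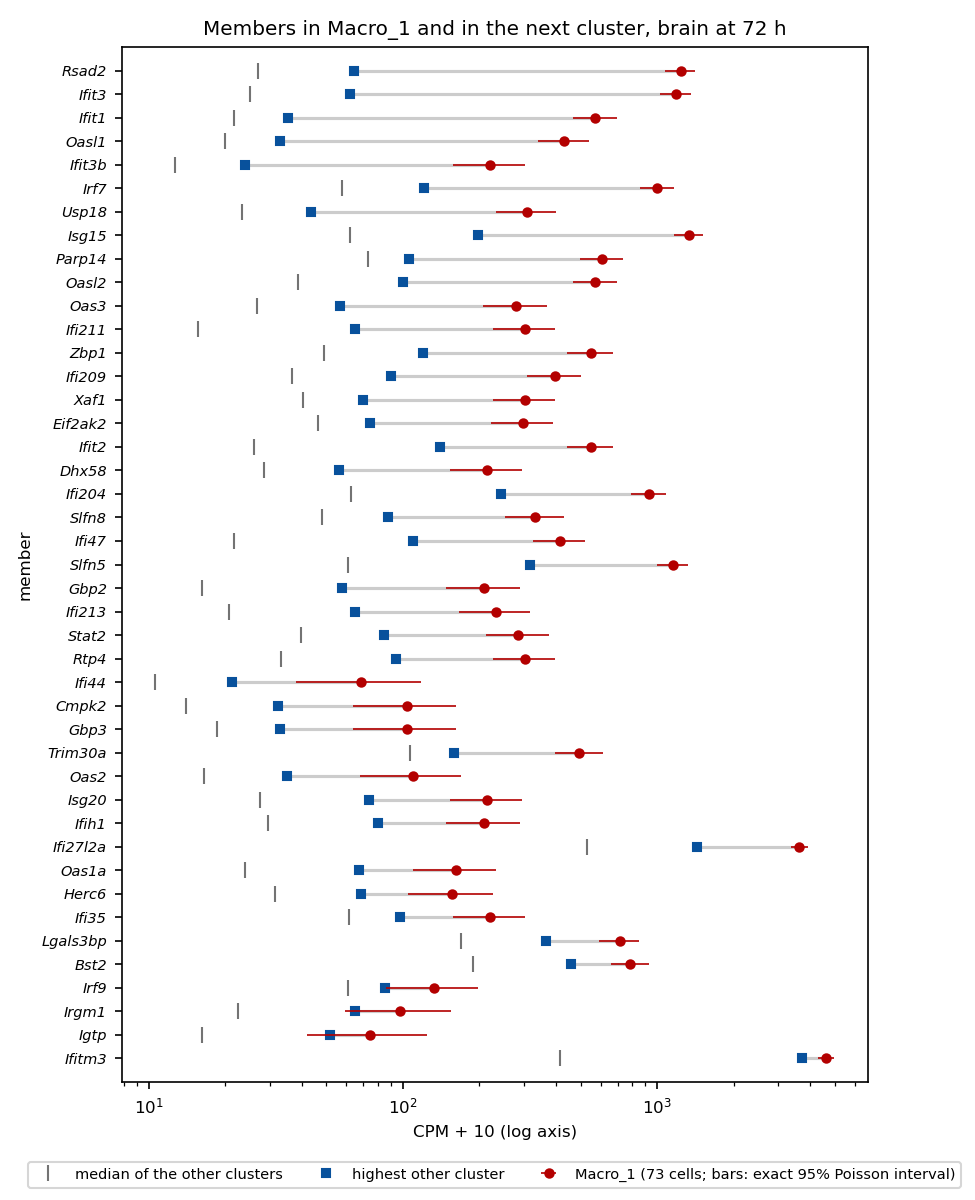
CPM + 10 (log axis) of each of the 43 members in brain at 72 h: Macro_1 (red, bars are exact 95% Poisson intervals), the highest other cluster (blue) and the median of the other clusters (grey tick). Rsad2 and Ifit3 lie 19.2 and 19.0 times above the next cluster, and Ifitm3 1.24 times.

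Macro_1 had high members in every library but different lineage markers. In control brain they carried 3284.6 CPM of P2ry12, a microglial gene, against 7264.5 CPM in the microglia clusters and 291 CPM in Macro_2 of the same library. Apoe, a macrophage gene, was at 1341.6 CPM there and at 542 CPM in brain at 24 h replicate 1, against 15675.3 to 47949.0 CPM in the other libraries. Lyz2, the other gene by which the study named macrophage clusters, did not follow Apoe in control brain. It was at 6985.6 CPM there and at 596 CPM in brain at 24 h replicate 1, against 4231.7 to 17005.2 CPM in the other libraries. In control brain Macro_1 thus held more P2ry12 and less Apoe than Macro_2 (29665.9 CPM of Apoe), and of the monocyte genes it held 740 CPM of Plac8 and 324 CPM of Ly6c2 but 0 CPM of Ccr2 and 46.3 CPM of Chil3. In brain at 24 h replicate 1, Macro_1 also held 45372.0 CPM of Spp1, a secreted phosphoprotein, against 935 CPM in Macro_2. Spp1 is a marker gene of SAMC, as are Lpl, Gpnmb and Fabp5. Of these, Macro_1 of replicate 1 held 867 CPM of Lpl but 0 CPM of Gpnmb and 0 CPM of Fabp5. In replicate 2, Macro_1 held 8344.3 CPM of Spp1, 1251.6 CPM of Lpl, 268 CPM of Fabp5 and 0 CPM of Gpnmb. In brain at 72 h, it carried more of the monocyte genes Ly6c2 (1035.3 CPM, against 60.7 CPM in Macro_2), Plac8 (1310.2 against 427 CPM) and Chil3 (918 against 28.5 CPM), and P2ry12 was at 135 CPM. In brain at 24 h replicate 2, Macro_1 held these genes too, with 1430.4 CPM of Plac8, 626 CPM of Chil3 and 149 CPM of Ly6c2. In the 4 meningeal libraries, Ly6c2 was between 0 and 21.1 CPM, although Plac8 was at 217 and 253 CPM in the 2 pia libraries, and Pf4, a border macrophage gene, was between 512 and 1771.7 CPM, against 0 to 59.6 CPM in the brain libraries. The number of cells behind these values is 9 to 73 per library. Whether Macro_1 in different libraries holds the same cell type was not tested, and its differences between libraries are therefore not read as changes of a single type.

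The response was also counted cell by cell, after each cell was thinned to 500 UMIs so that depth was equal. At least 3 of the 12 core members were detected in 133 of 195 Macro_1 cells (68.2%, exact 95% interval 61.2 to 74.7%). The share was 49.3% in brain at 72 h (36 of 73 cells) and between 66.7 and 93.8% in the other libraries. Of all other annotated cells, 270 of 32190 did so (0.839%, 0.742 to 0.945%). By cluster, Macro_2 reached 2.21% (85 of 3839 cells), gdTc 2.1% (14 of 668) and Tc 1.91% (35 of 1829), while Micro_1 had 2 of 4353 cells (0.0459%) and ILC2 0 of 1195, which allows up to 0.251%. Cells with several core members were thus found outside Macro_1 too: they were 2.26% of the other cells in control dura (1.74 to 2.88%), 1.69% in control pia and 0.164% in control brain. Without thinning, the share outside Macro_1 was 4.78%. The part of free RNA in these shares was not tested.

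Over all annotated cells of control mice, the members were higher in the meninges than in the brain. They summed to 885.7 CPM in control brain, 4179.2 CPM in control pia and 3959.9 CPM in control dura. Of 39 members with enough UMIs, 21 were at least 2-fold higher in both meningeal libraries and 0 lower, against 8.24% of all genes higher and 8.26% lower by the same rule, with a median log2 difference of 1.38 (all genes −0.15). With macrophage clusters alone (CAM_1, CAM_2, Macro_1 and Macro_2) 9 of 42 members were higher and 0 lower, against 5.66% of all genes higher and 9.63% lower, and the median was 0.75 (all genes −0.26). The 9 were Ifitm3, Irf7, Ifi211, Gbp2, Oas1a, Slfn5, Ifi204, Ifi47 and Ifi27l2a. Irf7 stood at 77.1 CPM in control brain, 193 CPM in control pia and 238 CPM in control dura. The macrophage clusters of control brain carried the microglial RNA given above, and its part in this difference was not tested. In Macro_2 alone the members did not show this order, with sums of 5038.5 CPM in control brain (35 cells), 4387.4 CPM in control pia and 4883.0 CPM in control dura. In Tc, which hold the same name in each tissue, 5 of 38 members were higher and 3 lower (20.6 and 10.3% of all genes), with only 31 Tc cells in control brain.

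At 24 h after stroke, the members of the macrophage clusters were lower in dura, about level in pia and mixed in brain. The macrophage score was 6.44 and 5.65 in dura (control, then 24 h), 6.03 and 5.95 in pia, and 5.51 in control brain, against 5.02 and 5.71 in brain at 24 h replicates 1 and 2. These sums and the values below include Macro_1. Without Macro_1 the scores were 6.11 and 5.39 in dura and 5.89 and 5.79 in pia. In brain they were then 5.07 in control and 4.67 and 5.37 in the replicates at 24 h. In dura, 12 of 42 members were at least 2-fold lower and 0 higher, while 0.764% of all genes were lower to this degree, and the median log2 difference was −0.76 (all genes 0.03). They were Cmpk2, Rsad2, Irf7, Gbp2, Usp18, Rtp4, Ifi209, Ifit2, Irgm1, Ifit3b, Ifit3 and Ifi47. In pia, 1 of 41 members was lower (Irgm1, against 0.664% of all genes), and in brain 1 of 40 was lower in both replicates (Ifit3b, against 2.19%). No member was 2-fold higher in dura (0.605% of all genes), in pia (1.66%) or in both brain replicates (3.1%).

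In macrophages Ifit3 was 251 CPM in control dura against 88.8 CPM at 24 h, 99 and 94.9 CPM in pia, and 148 CPM in control brain against 86.8 and 36.8 CPM in the replicates at 24 h. Isg15 was 249 and 130 CPM in dura, 122 and 175 CPM in pia, and 65 CPM in control brain against 72.1 and 92.5 CPM at 24 h. Rsad2 was 58.7 and 18 CPM in dura, 16.7 and 23.7 CPM in pia, and 16.6 CPM in control brain against 25.3 and 60.2 CPM at 24 h. Ifit3 was thus lower at 24 h in dura and in both brain replicates and differed by less than counting error in pia, whereas Isg15 and Rsad2 were lower at 24 h in dura and not in pia or in either brain replicate.

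Lower scores in dura at 24 h were found in other clusters too. In 14 of 14 clusters with at least 30 cells in both dura libraries the score was lower at 24 h, by 0.01 (Mast) to 1.43 (Granulo_1), with a median of −0.65. In pia it was lower in 13 of 14 clusters, with a median of −0.21, and higher in stress_Myeloid (by 0.41). In brain it was lower in 4 of 7 clusters in replicate 1 and in 2 of 7 in replicate 2. The medians of all genes lay between −0.09 and 0.11 in the dura pairs and between −0.34 and 0.21 in the pia pairs. These medians cover genes averaging 10 CPM or more, while the score takes in every member, so the 2 are not directly comparable. The median of members at that level was −0.33 in Bc of pia (all genes −0.28) and −0.93 in ILC2 of pia (−0.34). It was not lower in every cluster with a lower score. It was 0.12 in Granulo_2 of dura (all genes −0.07), 0.0004 in Macro_2 of pia and 0.02 in Tc of pia. Clusters of a library share its preparation and are not replicates. Dura at 24 h differs from its control in the listed kit version, so time and listed kit cannot be told apart here. The shared barcodes given above do not follow that listing.

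**Figure D4:**
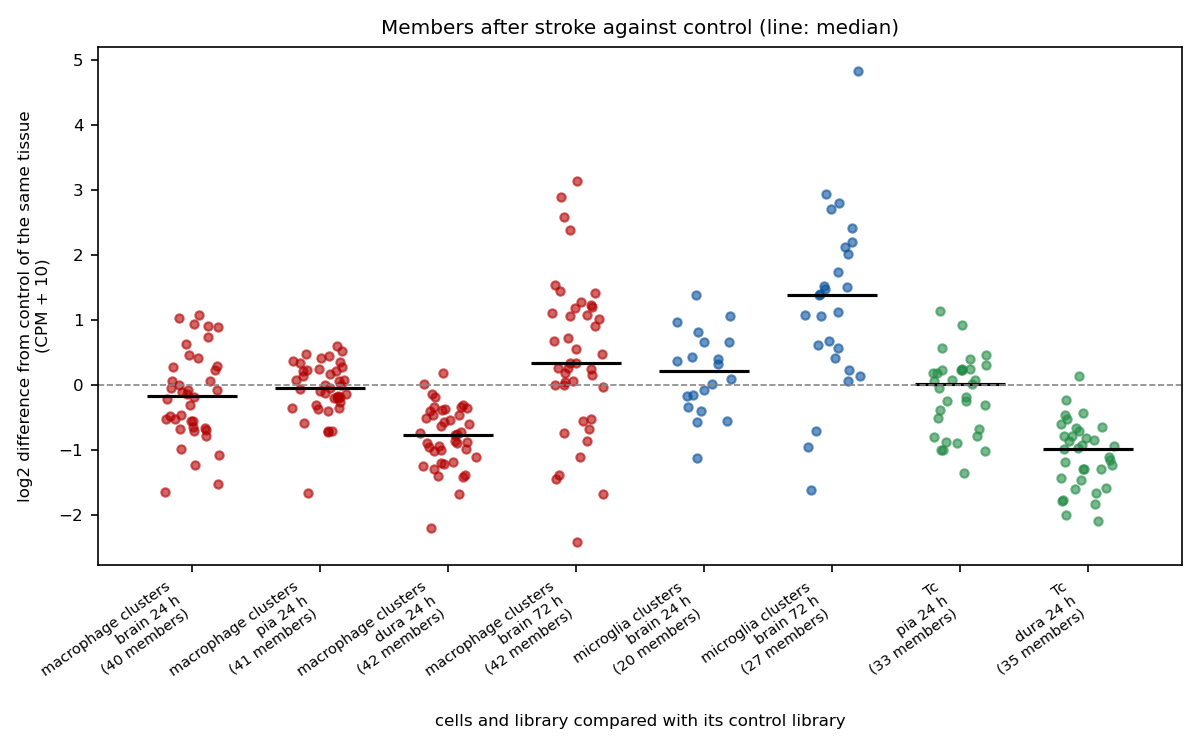
Log2 difference (CPM + 10) from the control of the same tissue for each member with a mean of at least 10 CPM in the compared libraries, in macrophage clusters, microglia clusters and Tc; each point is a member, lines are medians, and brain at 24 h is the mean of 2 replicates. The medians lie at −0.76 and −0.98 for dura at 24 h (macrophage clusters and Tc) and at 1.40 against control for microglia in brain at 72 h.

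The change at 24 h that the tissues share was tested with edgeR's quasi-likelihood test on sums of 3 control libraries and 4 libraries at 24 h, with tissue as a term. Only brain at 24 h has replicates, so the spread behind these p-values is that of this pair and of differences between tissues in their change. In macrophage clusters 0 of 43 members passed an adjusted p of 0.05 with a 2-fold change, as did 0 of the 9486 genes tested (0%). At an unadjusted p under 0.05, 8 of 43 members were lower and 0 higher, beside 2.56% of all genes lower and 2.28% higher. The fold change was below 0 for 36 of the 43 members, with a median of −0.37 (all genes 0.04), while 53.5% of all genes were above 0. Each of these 8 members had an adjusted p of 0.945 in edgeR. By role, the 5 GTPases were all below 0 (median −1.12), as were the 4 Ifit genes (median −0.89) and the ISG15 system (Isg15, Usp18 and the ligase Herc6, median −0.57).

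**Figure D5:**
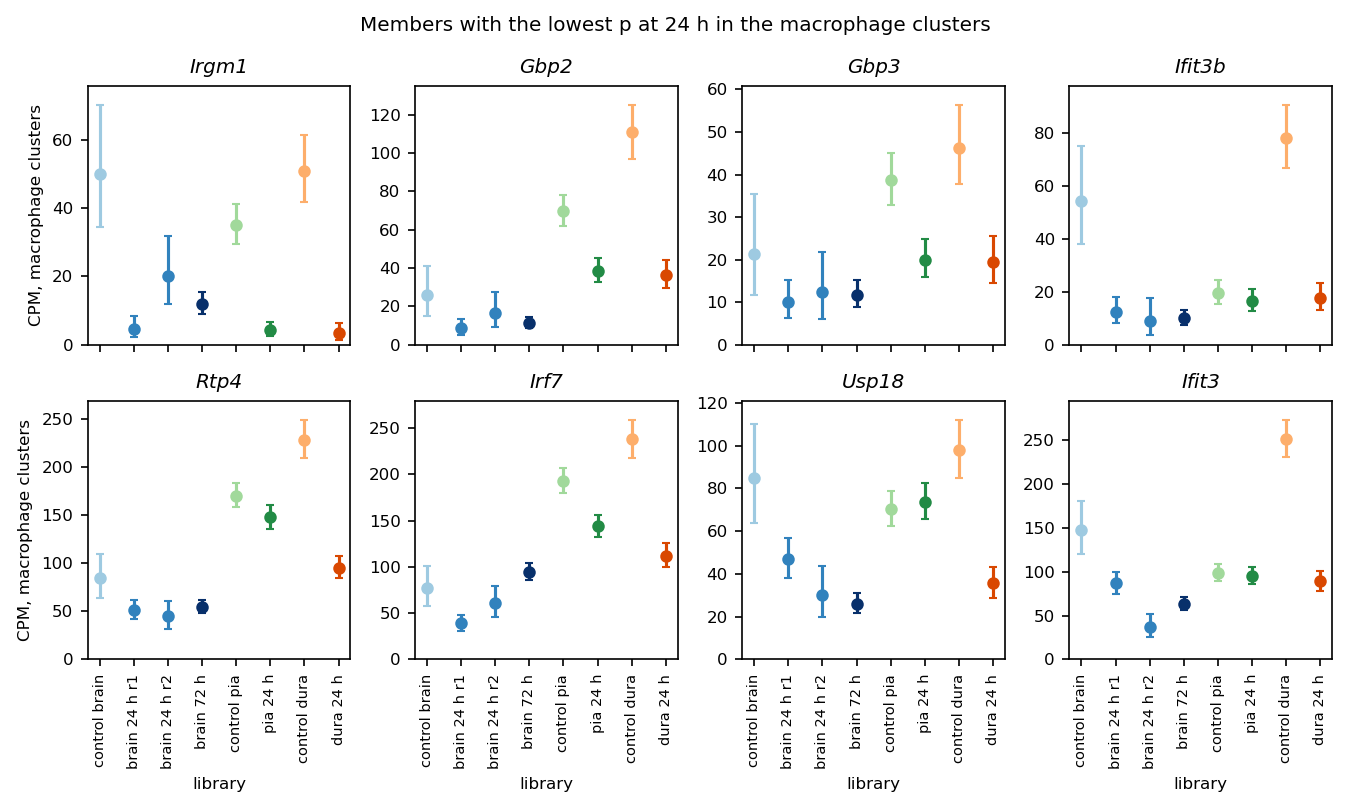
CPM in the macrophage clusters of each library for the 8 members with the lowest p at 24 h against control; bars are exact 95% Poisson intervals, which cover counting error only. Irgm1 lies at 35 to 50.9 CPM in the control libraries and at 3.3 to 20.1 CPM in the libraries after stroke.

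Irgm1 (chr11:48861968-48871683, minus strand), an immunity-related GTPase that acts in defence against intracellular bacteria and in autophagy, had the largest difference. In macrophages it was 49.9 CPM in control brain, 35 CPM in control pia and 50.9 CPM in control dura. After stroke it was 4.59 and 20.1 CPM in brain at 24 h replicates 1 and 2, 11.9 CPM in brain at 72 h, 4.23 CPM in pia and 3.3 CPM in dura. The 3 controls and the 5 libraries after stroke did not overlap. Irgm1 was picked for its difference, and the share of all genes so separated was not counted. The log2 fold change at 24 h was −3.03 ± 0.59 (SE), with an adjusted p of 0.945 over all genes in edgeR's quasi-likelihood test. Over 17 fits of this comparison it ranged from −3.52 to −2.65, and Irgm1 was called in 4 of them: with DESeq2 (adjusted p = 0.00146), without a low-count filter (5.86e-07), without brain at 24 h replicate 2 (0.00176) and with pia and dura alone (0.000118). Of all genes, 0.0316, 0.102, 0.658 and 1.31% were called lower in these 4 fits.

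The same order held for Irgm1 in nearly all cell types. Over all annotated cells it was 30.9, 36.3 and 44.4 CPM in control brain, pia and dura, and 3.78, 4.56 and 4.45 CPM at 24 h in brain replicate 1, pia and dura. The 2 libraries with the shorter gene list lay between, at 11.4 CPM (brain at 24 h replicate 2) and 11.9 CPM (brain at 72 h). In microglia it was 28.3 CPM in control brain and 2.84, 13.9 and 13.4 CPM in the brain libraries after stroke. Of the clusters with at least 30 cells on both sides, Irgm1 was lower at 24 h in 14 of 14 in pia, in 13 of 14 in dura and in 7 of 7 in brain for each replicate. The exception was Granulo_2 of dura, with 0 UMIs in control and 2 at 24 h. Several of these pairs rest on 1 or 2 UMIs, among them Bc, ILC2 and Micro_3 in pia and Mast in dura, and stress_Myeloid in pia was at 17.4 and 17.1 CPM from 1 UMI each. The gene list moves with these levels, and its part was not tested. Within the 6 libraries of the longer list, the 3 controls and the 3 libraries at 24 h stayed apart. The share of all genes for which this holds, or which were lower in as many clusters, was not counted either.

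The guanylate-binding proteins, which attack the membranes of intracellular microbes, followed. Gbp2 in macrophages was 25.7, 69.6 and 111 CPM in control brain, pia and dura, and 8.73, 16.7, 38.6 and 36.3 CPM at 24 h in the brain replicates, pia and dura. Gbp3 was 21.2, 38.7 and 46.3 CPM in the controls and 10.1, 12.3, 19.9 and 19.5 CPM at 24 h. Both were lower than the control of the same tissue in all 4 libraries. They were picked for their low p, and the share of all genes lower in all 4 was not counted. Their log2 fold changes were −1.25 ± 0.33 and −1.12 ± 0.30 (SE), and neither was called (edgeR, adjusted p = 0.945). Ifit3b had −1.72 ± 0.47, Rtp4, a chaperone of receptors, −0.84 ± 0.30 and Irf7 −0.79 ± 0.29.

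How many members were lower depended on which libraries entered the fit. For pia and dura alone, the spread behind the p-values is only the difference between these tissues in their change. Without brain at 24 h replicate 2, 3 of 43 members were called lower in macrophages (Irgm1, Gbp2 and Gbp3), beside 0.658% of 9421 genes, and 21 of 43 were lower at an unadjusted p under 0.05 (11.7% of all genes). With the 4 pia and dura libraries alone, an alternative added after the data were seen that leaves 1 residual degree of freedom, 6 members were called (Irgm1, Gbp2, Gbp3, Ifi47, Ifi44 and Ifi209), all lower, beside 1.31% of all genes. With Macro_2 alone, whose P2ry12 in control brain (291 CPM) is below that of Tc there, 0 were called and 11 of 43 were lower at an unadjusted p under 0.05 (1.77% of all genes). Without Macro_1, 0 were called, 31 of 43 were below 0 and 9 were lower at that p (2.56% of all genes). At an unadjusted p under 0.05, 1 member was lower without control dura (1.33% of all genes), 2 without dura at 24 h (1.4%), 3 without control brain (0.527%), 5 without control pia or without pia at 24 h (0.601 and 0.65%) and 8 without brain at 24 h replicate 1 (2.17%). No member was higher at an unadjusted p under 0.05 in any of these fits.

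In Tc, the T cell cluster found in every library, the scores at 24 h were below control in all 3 tissues, least in pia. In brain the score was 5.72 in control and 5.08 and 4.95 in the replicates at 24 h, in pia 5.61 and 5.51, and in dura 5.99 and 5.04. In dura, 17 of 35 members were at least 2-fold lower and 0 higher, against 1.96% of all genes lower, with a median of −0.98 (all genes −0.002). Irf7 was 234 CPM in Tc of control dura and 71 CPM at 24 h, and Ifi27l2a 623 and 149 CPM. In pia 1 of 33 members was higher (Oas3, 5.56% of all genes) and 2 were lower (Parp14 and Ifit3, 5.85%). In brain 3 of 35 were higher and 8 lower (17.7 and 8.17% of all genes), with 31 Tc cells in control brain and 33 in replicate 1.

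The edgeR test of Tc called 0 of 25 members, as it called 0 of 4712 genes (0%). All 25 fold changes were below 0 (median −0.89, all genes 0.04), while 54.2% of all genes were above 0, and 7 members were lower at an unadjusted p under 0.05, against 1.1% of all genes lower (0.679% higher, 0 members): Ifit3b, Ifit3, Irgm1, Usp18, Ifit1, Isg20 and Ifi209. Ifit3 had a log2 fold change of −1.50 ± 0.43 (SE) in Tc, with an adjusted p of 0.998 in edgeR. Without brain at 24 h replicate 2, Ifi27l2a, Ifit3 and Ifit3b were called lower (3 of 24 members, 0.235% of all genes), and with pia and dura alone Ifi27l2a and Ifit3 (2 of 24, 0.2%). With cells of at least 1000 UMIs, which leaves 5 libraries, Ifi27l2a, Bst2, Isg20 and Rtp4 were called lower (4 of 28, 0.505%). Without control dura or without dura at 24 h, 1 member each was lower at an unadjusted p under 0.05 (0.336 and 0.34% of all genes).

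Over all annotated cells, where the level per cell and the mix of cell types cannot be told apart, 0 of 43 members were called in edgeR (0% of 11945 genes). At an unadjusted p under 0.05, 4 were lower and 0 higher, beside 1.81% of all genes lower and 1.62% higher: Irgm1, Ifit3b, Gbp3 and Gbp2. Without brain at 24 h replicate 2, 2 were called lower (Irgm1 and Ifi213, 0.298% of all genes), and with pia and dura alone 9 (1.47%). Between pia and dura, with both times in the fit, no member was called in macrophages or in Tc (0% of all genes each). At an unadjusted p under 0.05, 1 member of 43 was lower in macrophages of pia (Ifit2, 1.04% of all genes) and 0 higher (0.738%), and in Tc 0 of 25 were lower (0.573%) or higher (0.467%).

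Microglia had the lowest scores of the 7 clusters measured in control brain, from 4.25 to 4.36 in Micro_1 to Micro_3. Over the microglia clusters the score was 4.29 in control brain, 4.37 and 4.52 in brain at 24 h replicates 1 and 2, and 5.22 in brain at 72 h. At 24 h, 0 of 20 members were 2-fold higher or lower in both replicates (0.55% of all genes higher, 0.0626% lower). The edgeR test called 0 of 36 members and 0% of 11140 genes, with 0 members at an unadjusted p under 0.05 in either direction (1.95% of all genes, all higher).

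At 72 h, 9 of 27 members were at least 2-fold above both replicates at 24 h, against 1.13% of all genes, and the median log2 difference was 1.02 (all genes −0.02). Isg15 in microglia was 10.8 CPM in control brain, 24 and 22.2 CPM at 24 h and 85.4 CPM at 72 h. Ifit2, an RNA-binding member of its family, was 1.64, 1.42 and 7.4 CPM before and 71.4 CPM at 72 h. Ifi27l2a was 7.53, 5.48 and 23.5 CPM and then 494 CPM. The single library at 72 h lay above the 3 others for each of these genes. The other 6 were Rsad2, Ifitm3, Oasl2, Lgals3bp, Slfn5 and Ifit3. Against control brain, 17 of 27 were higher at 72 h, but 20.5% of all genes were too.

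Other cells of the library at 72 h held some of these transcripts too. Ifi27l2a was at 836 CPM in Tc of the same library, above its level in microglia, whereas Ifitm3 was at 52.8 CPM in Tc and at 179 CPM in microglia, and Lgals3bp at 114 CPM in Tc and at 309 CPM in microglia. The part of RNA from other cells in the microglial sums was not tested. With 1 library at 72 h, listed with another kit and with no replicate, the difference between the times was not tested either.

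In macrophages of the brain, 2 of 41 members were at least 2-fold higher at 72 h than in both replicates at 24 h (Lgals3bp and Ifi27l2a), against 1.04% of all genes, and 36 of the 41 were above 0 (45.52% of all genes). Lgals3bp was 110 CPM in control brain, 144 and 128 CPM at 24 h and 312 CPM at 72 h. Ifi27l2a was 99.8, 12.9, 381 and 961 CPM in this order. Against control brain, 15 of 42 were higher at 72 h and 5 lower (Usp18, Irgm1, Ifit3b, Ifit3 and Igtp), but 18.7 and 15% of all genes were so. Macro_2 was 35 of 440 macrophages in control brain and 570 of 1497 at 72 h, and the part of this mix was not tested.

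The 2 replicates of brain at 24 h were themselves apart. In macrophages, 14 of 38 members were at least 2-fold higher in replicate 2 than in replicate 1, beside 21.9% of all genes, and in microglia 7 of 19, beside 25.5%. In macrophages, Slfn5 was 13.3 CPM in replicate 1 and 138 CPM in replicate 2, and Ifitm3 212 and 1317.2 CPM. The mix of macrophage clusters differed between the replicates: Macro_2 was 56 of 993 macrophages in replicate 1 and 93 of 356 in replicate 2. The part of this mix was not tested. Replicate 2 shares its gene list with brain at 72 h. In microglia, Parp14, an ADP-ribosyltransferase, was 54 and 73.2 CPM in these 2 libraries and 5.57 and 6.5 CPM in the other 2 brain libraries, and Trim30a, Stat2 and Ifi204 were also at least 2-fold higher there (4 of 24 members, beside 14.4% of all genes). Igtp was lower there, at 16.1 and 11.6 CPM against 56.2 and 65.6 CPM (1 of 24, beside 5.47%). These counts of 4 and 1 are near the shares of all genes and are not read as particular to the members. The 2 replicates at 24 h share their time and lie on different sides for these 5 members. They also differ in the gene list and in the cell barcodes shared with control brain (22 and 0). The part of either was not tested.

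Of the pathway around the members, the type I interferons measured had few UMIs. Ifnb1, interferon beta, had 77 UMIs in all annotated cells, 40 of them in brain at 72 h, 19 in pia at 24 h and 8 in control pia, and 0 in control brain. By cluster, Micro_3 held the most of them (20 UMIs). The mean level of Ifnb1 was highest in stress_Myeloid, at 51.3 CPM over 3 usable libraries, and next in Macro_1 at 11.7 CPM (brain at 72 h alone). Ifna4, an interferon alpha, had 0 UMIs. Ifng, the type II interferon, had 579 UMIs, 54.6% of them in Tc, and its level was highest in NK (187 CPM). Members such as Gbp2 and Irgm1 are known to respond to interferon gamma as well. The receptor subunits Ifnar1 and Ifnar2 were found in all libraries. In brain at 72 h, Ifnar1 was 187 CPM in Macro_1 and 89.5 CPM in the median cluster, and Ifnar2 81.9 and 108 CPM.

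Of 30 other interferon-inducible genes tested in macrophages, 28 were below 0 (median −0.43), 2 were lower at an unadjusted p under 0.05 and 0 called. Of 16 receptors and signal genes 13 were below 0, with 2 lower at that p, and of 9 sensors and adaptors 6 were below 0, with 1 lower (Tlr3) and 1 higher (Ticam1). Of all genes in macrophages, 53.5% were above 0, 2.56% were lower at that p and 2.28% higher. In Tc, 17 of 20 other interferon-inducible genes were below 0 (median −0.42), with 1 lower at that p. Of all genes in Tc, 54.2% were above 0 and 1.1% were lower at that p. Neither fit called any of them, or any other gene (0%), and the counts of 1 or 2 are not read as results.

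Across 114 sums of a library and cluster with at least 50000 UMIs, the genes outside the list whose CPM ranked most like the score were Epsti1 (Spearman's rho 0.72), Ms4a6b (0.71), Phf11b (0.71), Axl (0.70) and Ifi207 (0.69), of 11198 genes considered. Among the members, Oasl2 followed the score most closely (0.81), then Oas1a (0.80) and Irf7 (0.78). These correlations are descriptions: the sums share libraries and clusters, and each member is part of the score.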

How the data were processed

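Single-cell RNA sequencing of 8 libraries was used. The authors' deposited files hold raw UMI counts per gene and barcode, made with Cell Ranger 6.0 on mm10 (submitters' processing notes), and cluster names for the cells left after the authors' own filters and doublet removal, so no doublet caller was run here. The library used as control pia has brain in its title and pia in its other labels.

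Libraries were joined by Ensembl identifier (597 identifiers differ in symbol), and UMIs were summed per library and cluster or class, each of at least 30 cells. The macrophage class is CAM_1, CAM_2, Macro_1 and Macro_2. The microglia class is Micro_1, Micro_2, Micro_3 and stress_Micro. Two-sided tests used edgeR 4.0.16 (quasi-likelihood, TMM, filterByExpr, robust fit) in R 4.3.3 over all genes; called means a fold of 2 or more at an adjusted p (Benjamini-Hochberg) below 0.05. With 1 library on a side no test was made, except for microglia in brain at 24 h. Members at least 2-fold apart on the CPM + 10 scale in every library were counted among genes averaging 10 CPM or more. Intervals are exact, at 95%, and cover counting error only; for 0 counts the limit is 3 counts. The edgeR step was tested on simulated data. Python 3.11.15, numpy 2.4.6, pandas 2.3.3, scipy 1.17.1 and matplotlib 3.10.9 did the rest.

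The members and lists were chosen with earlier results of these data known. Values are given for called members, the 6 highest, Ifit3, Isg15, Irf7 and Rsad2, and the 3 members with the largest ratio to the median cluster; other members named, such as those with the lowest p, were chosen after their values were seen. Alternatives were DESeq2 1.42.0, library-size scaling, no low-count filter, other pseudocounts, depths and cell minimums, single libraries or clusters left out and the 72 h library added. Fits of Macro_2 alone, of pia and dura alone and without Macro_1 were chosen after seeing the data. Mx1 and Mx2 entered no comparison.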

Additional observations from a re-analysis of the deposited data

Results flagged for a closer look

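Over all annotated cells, the member score moved in opposite directions in brain and in the meninges at 24 h. It was higher than in control brain by 0.205 in brain replicate 1 and by 0.482 in replicate 2, while the difference from control was −0.831 in dura and −0.208 in pia. Without Macro_1 the differences were 0.183 and 0.501 in the brain replicates, −0.779 in dura and −0.207 in pia. The difference between tissues was not tested, and composition moves with it: microglia were 3733 of 4297 annotated cells in control brain, 2998 of 4582 in replicate 1 and 1998 of 3468 in replicate 2.

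The barcodes that carry no cluster name entered no comparison. In control brain the members summed to 891.2 CPM in these barcodes, and they were above it in brain at 24 h replicate 1 (1276.2 CPM), replicate 2 (1307.8 CPM) and brain at 72 h (3806.3 CPM). Their annotated cells held 885.7, 1262.5, 2187.4 and 4705.1 CPM in the same order.

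Mx1, which only the shorter gene list holds, had 67 UMIs in brain at 24 h replicate 2 and 461 UMIs in brain at 72 h, and no control library carries that list.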

How the results depend on the processing

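Of 131 alternative values for the main results, 102 stayed the same, 27 moved and 2 reversed, and the cause was not tested. A count of members called was the same if it stayed at 0, and a share if it stayed in its interval. A score difference was the same if it moved by less than the SD of the 2 brain replicates at 24 h (0.493 in macrophages). Many of the 102 were fits that again called 0 members, where few or no genes of any kind were called. The members called at 24 h were 0 in macrophages, Tc and all cells. With DESeq2 they became 1 in macrophages and 1 in all cells, all lower (0.0316 and 0.0753% of all genes). Without a low-count filter they became 2 and 1, all lower (0.102 and 0.0755%). They became 4 in Tc with cells of at least 1000 UMIs, and 6 in macrophages, 2 in Tc and 9 in all cells with pia and dura alone. With each library left out in turn they ranged from 0 to 3 in macrophages, 0 to 3 in Tc and 0 to 2 in all cells, each time highest without brain at 24 h replicate 2, and stayed at 0 for pia against dura. The score difference of macrophages between pia at 24 h and control (−0.074) was 0.057 with cells thinned to 500 UMIs. That between brain at 24 h and control (−0.144) ranged from −0.492 to 0.205, the latter without replicate 1; in microglia (0.149) it ranged from 0.075 to 0.223. With a pseudocount of 1 CPM the microglial difference was 0.358 at 24 h, that between 72 and 24 h 1.281 (0.776 as reported) and that of Tc in dura −1.334 (−0.956). With 50 CPM the last 2 were 0.381 and −0.551, and Macro_1 minus the next cluster was 1.870 (2.538). Between 72 and 24 h the microglial difference was 0.648 without the 6 highest members and 0.636 with thinning. The share of cells with core members in Macro_1 (68.2%) was 94.4% at 1000 UMIs, 97.9% without thinning, 85.1% from 2 members and 50.8% from 4; outside Macro_1 (0.839%) it was 2.07, 4.78, 2.41 and 0.336%. Library-size scaling moved the median fold change of all genes from 0.06 to 0.18 in all cells and from 0.10 to 0.37 in microglia. A minimum of 100 cells left no value for Macro_1 at 72 h, and leaving out a replicate left microglia with no residual degrees of freedom. No paired analysis was possible because only brain at 24 h carries replicate numbers. Listed version 3 of the kit and the shorter gene list occur only in libraries after stroke. The gene list also differs between the 2 brain replicates at 24 h, and shared barcodes do not follow the listed kit. With 1 library in most groups and 9 to 28 Macro_1 cells in most libraries, precision is limited.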
